A study of Mus musculus with 14 samples.

Results

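Cox5a, Cox5b, Cox6b1, Cox6c, Cox7b, Cox7c and Ndufa4 are nuclear genes for subunits of cytochrome c oxidase, complex IV of the respiratory chain, that are not made as a pair of tissue isoforms. The 7 genes were chosen by symbol and matched by Ensembl identifier among 35275 genes in the deposited table. No cut on their values was used, but earlier results of these data were known when they were chosen. All 7 passed the filter on low values and were among the 13079 genes tested. Cox6b1 and Cox7b do have relatives known mainly from testis, Cox6b2 and Cox7b2, and Ndufa4 has the relative Ndufa4l2. These relatives are described separately from the 7 genes.

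RNA was sequenced from homogenized brown adipose tissue of 14 C57BL/6 mice aged 8 weeks, 1 library for each mouse. All mice carried floxed alleles of Lrpprc (LrpprcFF). The knockouts also carried Ucp1-Cre, a transgene that drives the recombinase from the Ucp1 promoter. It is meant to limit deletion to cells that have expressed Ucp1. Deletion in each cell type of the tissue was not measured. The controls carried the floxed alleles without Cre. At room temperature (22 °C) there were 4 controls and 4 knockouts, and at thermoneutrality (30 °C), a temperature at which a mouse needs little extra heat, there were 3 controls and 3 knockouts. Brown adipocytes are the labelled cell type, but the labels describe no isolation of these cells from the tissue. They give each mouse its own identifier but do not state litters. The p-values set differences in group means against the spread between these mice, which were treated as independent.

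Complex IV passes electrons from cytochrome c to oxygen and pumps protons across the inner mitochondrial membrane. Its catalytic core is made of 3 subunits encoded by mitochondrial DNA (mt-Co1, mt-Co2 and mt-Co3), and the nuclear subunits are added around them in modules. Cox5a joins early with Cox4i1 on the module of mt-Co1. Cox5b, Cox6c, Cox7b and Cox7c belong with Cox8a to the module of mt-Co2, Cox6b1 belongs to the module of mt-Co3, and Ndufa4, once counted as a complex I subunit, is added late. Lrpprc encodes an RNA-binding protein that stabilizes mitochondrial messenger RNAs. Brown fat is dense in mitochondria, whose proton gradient is used for heat by Ucp1.

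The 7 genes lie on different chromosomes, with Cox5a on chromosome 9, Cox5b on 1, Cox6b1 on 7, Cox6c on 15, Cox7b on X, Cox7c on 13 and Ndufa4 on 6. Promoter sequences of 6 of the 7 genes were found in the RefSeq table (build GRCm38.p6), each window running from 250 bases before to 50 bases after the start of the gene, and Cox6c was not matched. Cox7b and Cox7c are printed because they shared the longest run of letters of any pair, and the others because they held the core of a motif known from respiratory genes. Each line gives the 150 bases before the start, 5′ to 3′ on the strand of the gene. Capitals mark the shared run in Cox7b and Cox7c and, on either strand, the core GCGCATG of the Nrf1 motif and the core CGGAAG of the ETS family, to which Gabpa belongs. The stretches are chrX:106015550-106015699 on the plus strand for Cox7b, chr13:86046796-86046945 on the minus strand for Cox7c, chr1:36691337-36691486 on the plus strand for Cox5b, chr9:57521082-57521231 on the plus strand for Cox5a and chr7:30626115-30626264 on the minus strand for Cox6b1.
Cox7b: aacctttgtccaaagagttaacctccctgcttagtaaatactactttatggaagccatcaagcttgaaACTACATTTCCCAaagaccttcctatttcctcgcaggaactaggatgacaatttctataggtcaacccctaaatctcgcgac
Cox7c: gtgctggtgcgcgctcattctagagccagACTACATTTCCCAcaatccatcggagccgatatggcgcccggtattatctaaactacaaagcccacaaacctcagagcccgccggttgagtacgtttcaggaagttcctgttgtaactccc
Cox5b: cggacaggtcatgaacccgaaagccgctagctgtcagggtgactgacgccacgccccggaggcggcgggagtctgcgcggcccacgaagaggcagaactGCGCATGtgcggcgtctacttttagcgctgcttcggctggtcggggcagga
Cox5a: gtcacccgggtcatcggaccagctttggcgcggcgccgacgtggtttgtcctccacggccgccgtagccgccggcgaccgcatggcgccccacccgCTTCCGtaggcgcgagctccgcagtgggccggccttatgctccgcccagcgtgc
Cox6b1: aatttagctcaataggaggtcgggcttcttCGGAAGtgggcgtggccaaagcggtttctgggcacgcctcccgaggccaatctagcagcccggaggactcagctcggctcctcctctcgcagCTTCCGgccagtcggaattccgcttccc

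Cox7b and Cox7c shared the 13 letters ACTACATTTCCCA, which 0.435% of 32851 promoter windows held on either strand. The next longest run among the 15 pairs of windows had 10 letters, and the shortest 7. Cox5b was the only member with the Nrf1 core, which 3.91% of windows held. The ETS core was in the windows of Cox5a, Cox5b (after the start and so not printed) and Cox6b1, 3 of 6, against 16.9% of all windows. It was as common in other nuclear subunits of complex IV, where 3 of 7 windows held the ETS core and 1 of 7 the Nrf1 core. The estrogen-related receptor motif AAGGTCA (4.72% of windows) and the cyclic AMP response element TGACGTCA (1.79%) were in none of the 6 member windows, and the GC box GGGCGG (35.7%) was in that of Cox5a. None of these letters was in the window of Ndufa4. All were searched on both strands, overlapping matches were kept, and the set was chosen with the sequences in view. A match describes the letters of the window, and binding of a factor was not measured.

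All 7 transcripts were abundant. Their mean FPKM (fragments per kilobase of transcript per 1 M mapped fragments) lay between the 99.2nd and the 99.9th percentile of all 35275 genes in the deposited table. Libraries held 15.8 to 21.2 M fragments, worked out from the spacing of low FPKM values, and each member had about 1425 to 17545 fragments in a library, so counting error was small beside the spread between mice. Within groups the SD on the log2 scale was 0.13 to 0.18 for the 7 genes. Lrpprc itself, as mean ± SD, was 42.3 ± 14.4 scaled FPKM in the 4 controls and 10.4 ± 1.07 in the 4 knockouts at 22 °C, and 31.6 ± 1.22 and 6.98 ± 1.83 in the 3 controls and 3 knockouts at 30 °C. Each library was divided by a factor from the median ratio over nuclear genes, 0.823 to 0.947 in controls and 1.047 to 1.20 in knockouts, which gave the scaled FPKM. In bulk tissue, fewer cells of a type and less RNA in each cell cannot be told apart.

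The order of the 7 levels in scaled FPKM differed between groups. In controls at 22 °C Ndufa4 was first at 2035 ± 187 (SD, n = 4), followed by Cox6b1 at 1976 ± 179 and Cox5b at 1717 ± 200.5, and the ranges of neighbours in this trio overlapped. Cox7c (1009 ± 90.1), Cox7b (712 ± 92.2) and the pair of Cox6c (368 ± 54.0) and Cox5a (364 ± 24.8) followed in steps without overlap, while Cox6c and Cox5a overlapped. In the other 3 groups Cox5b was first and Cox6c last. In knockouts at 30 °C Cox5b stood at 1254 ± 193 (SD, n = 3), above Cox6b1 at 689.6 ± 47.0 and Ndufa4 at 589 ± 54.7, with no overlap between neighbours in that trio.

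**Figure D1:**
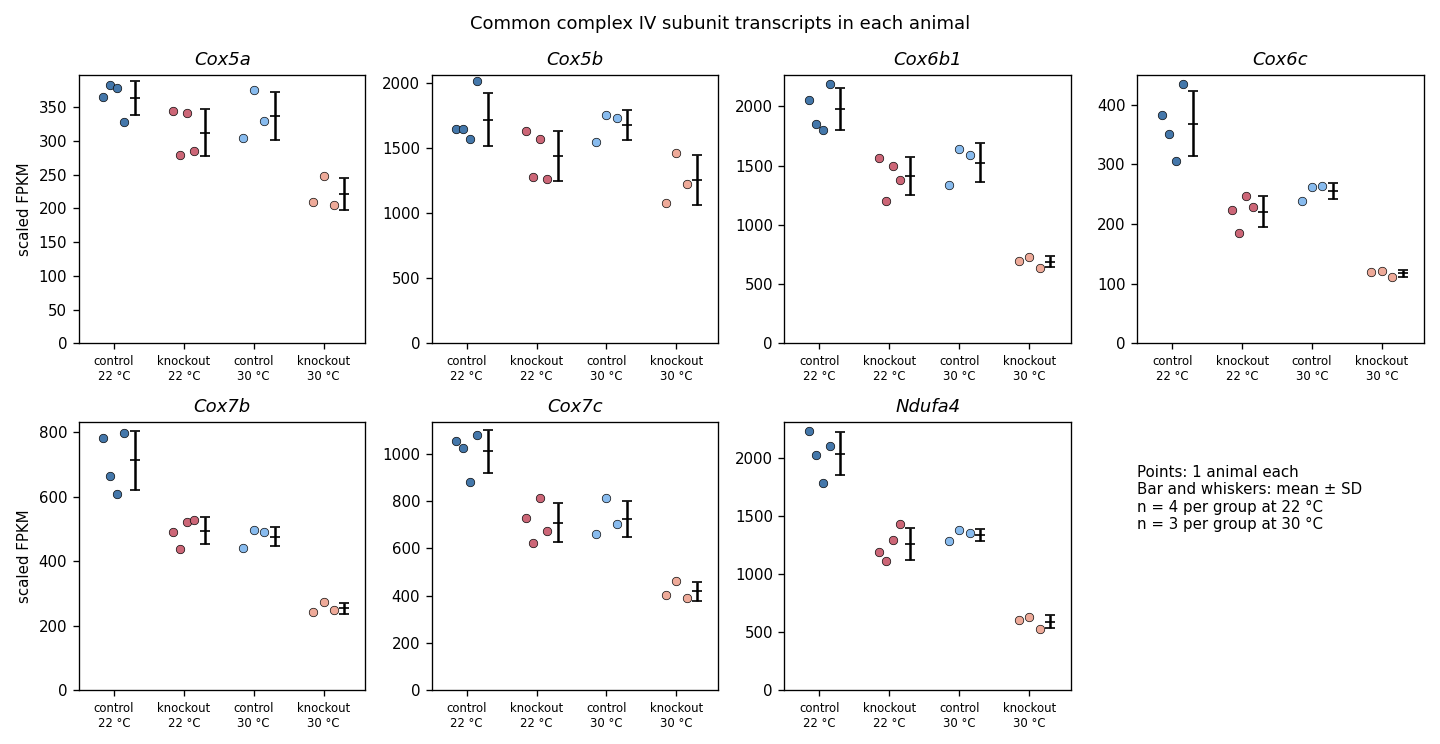
Level of each of the 7 transcripts in each mouse, in scaled FPKM on an axis from 0, by genotype and housing temperature. Points are single mice and the bar with whiskers is the mean ± SD (n = 4 in each group at 22 °C and n = 3 at 30 °C). For every gene except Cox5b the 3 knockouts at 30 °C lie below all other mice.

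Across genotypes at 22 °C, all 7 transcripts had lower estimates in knockouts, and 4 of 7 (Cox6c, Cox7b, Cox7c and Ndufa4) fell, by limma on log2(scaled FPKM + 1) with a Benjamini-Hochberg adjusted p under 0.05 over all 13079 genes. Of all genes tested, 1.06% were called lower in this comparison. The median log2 fold change of the 7 genes was -0.51, beside 0.0024 for all genes. The ranges of knockouts and controls did not overlap for 5 of 7 genes, all lower, against 4.53% of all genes. At 30 °C, 6 of 7 fell (all but Cox5b), where 5.28% of all genes were called lower, and the median was -0.90, beside 0.065 for all genes. The knockouts lay below the controls without overlap for 7 of 7 genes, against 14.6% of all genes. The member of the early mt-Co1 module, the members of the mt-Co2 and mt-Co3 modules and Ndufa4 are taken in turn.

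Cox5a, which pairs with the Cox4 subunit on the matrix side, had 365, 383, 379 and 329 scaled FPKM in the 4 controls at 22 °C and 344, 279, 341 and 285 in the 4 knockouts. The 2 groups overlapped, with knockouts 1 and 3 within the range of the controls. With a log2 fold change of -0.22 ± 0.11 (SE; limma adjusted p = 0.35) Cox5a did not pass at this temperature. The 3 controls at 30 °C had 305, 376 and 329 and the 3 knockouts 210.3, 248.9 and 205. Here every knockout was below every control, and Cox5a fell to 65.7% of the control mean, a log2 fold change of -0.60 ± 0.13 (SE; limma adjusted p = 0.00901).

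Cox5b, a subunit of the mt-Co2 module that binds zinc on the matrix side, had 1642, 1648, 1567 and 2013 scaled FPKM in controls at 22 °C and 1629, 1275, 1569.5 and 1264 in knockouts. Control 4 stood above the other controls, and knockouts 1 and 3 lay among the controls. At 30 °C the values were 1544, 1754 and 1726 in controls and 1079.8, 1461 and 1220.1 in knockouts. Those groups did not overlap, but the highest knockout and the lowest control were close. Neither difference passed, with log2 fold changes of -0.26 ± 0.13 (SE; limma adjusted p = 0.373) at 22 °C and -0.43 ± 0.16 (SE; limma adjusted p = 0.087) at 30 °C. At 30 °C Cox5b passed as lower with sample weights (-0.47, limma adjusted p = 0.0128) and without knockout 2 (-0.54, limma adjusted p = 0.0353). The copy Gm11273, 94.4% identical over 410 bases, came to 1.32% of the level of Cox5b, and how shared reads were assigned is not known. The estimate of Cox5b turned above 0 under quantile normalization at both temperatures (0.10 and 0.12) and with the FPKM as deposited at 22 °C (0.04).

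Cox6c, a small membrane subunit of the mt-Co2 module, showed the largest estimate of the 7 at 22 °C. Its scaled FPKM was 382, 351, 305 and 434 in controls and 224, 184, 246 and 229 in knockouts, so that every knockout was below every control. Cox6c fell to 60.0% of the control mean, a log2 fold change of -0.73 ± 0.12 (SE; limma adjusted p = 0.00733). Controls at 30 °C had 239, 262 and 263 and knockouts 119, 122 and 111. The knockouts formed a narrow range below the controls, at 46.0% of their mean, and the fall was -1.11 ± 0.14 (SE; limma adjusted p = 0.000399) on the log2 scale.

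Cox7b, a membrane subunit of the same module and the only X-linked gene among the 7, had 782, 663, 607 and 797 scaled FPKM in controls at 22 °C and 492, 437, 521 and 528 in knockouts. The knockouts lay below the controls, and controls 2 and 3 were the closest to them. The log2 fold change of -0.52 ± 0.11 (SE; limma adjusted p = 0.0308) passed. At 30 °C the controls had 442, 496 and 489.8 and the knockouts 241, 272 and 248. The groups were again separate, and the fall was -0.90 ± 0.13 (SE; limma adjusted p = 0.00114) on the log2 scale, to 53.4% of the control mean.

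Cox7c, whose promoter shares 13 letters with that of Cox7b, had 1054, 1023, 878 and 1079.9 scaled FPKM in controls at 22 °C and 726, 621, 813 and 672 in knockouts. Knockout 3 came close to control 3 without overlap. Cox7c fell here with a log2 fold change of -0.51 ± 0.12 (SE; limma adjusted p = 0.043). At 30 °C the values were 659, 810.1 and 702 in controls and 400.4, 464 and 390.1 in knockouts. All knockouts were below all controls, and Cox7c fell by 0.79 on the log2 scale (SE 0.14, limma adjusted p = 0.0033), to 57.8%. Reads of Cox7c can be shared with copies elsewhere in the genome. The pseudogene Gm12338 is 100% identical to a Cox7c transcript over 192 bases and had a median of 35.2 FPKM as deposited, and the copies together came to 5.04% of the level of Cox7c.

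Cox6b1 lies on the intermembrane face of complex IV, where it links the monomers of a dimer, and joins with the mt-Co3 module. Its scaled FPKM at 22 °C was 2057, 1855, 1804 and 2188 in controls and 1564, 1200.5, 1499 and 1381 in knockouts. The groups did not overlap, yet the log2 fold change of -0.49 ± 0.12 (SE; limma adjusted p = 0.0564) just missed the threshold. Its values at 30 °C were 1334, 1643 and 1593 in controls and 697, 733 and 639.5 in knockouts. The knockouts were far below the controls, at 45.3% of their mean, and the fall was -1.14 ± 0.14 (SE; limma adjusted p = 0.000382) on the log2 scale. In 4 of 27 alternative settings Cox6b1 also passed at 22 °C, with adjusted p-values of 0.0171 to 0.573 over the alternatives.

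Ndufa4 had 2227, 2029, 1784 and 2102 scaled FPKM in controls at 22 °C and 1189.7, 1114, 1289 and 1430.2 in knockouts. The lowest control was above the highest knockout, and Ndufa4 fell to 61.7% of the control mean, a log2 fold change of -0.70 ± 0.11 (SE; limma adjusted p = 0.00733). At 30 °C the controls had 1284, 1381 and 1351 and the knockouts 604, 634 and 528. The separation was wide, and the fall to 44.0% of the control mean was the largest of the 7 at this temperature, -1.19 ± 0.13 (SE; limma adjusted p = 0.000229) on the log2 scale.

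The calls at 22 °C were less firm than those at 30 °C. Cox6c passed in 26 of 27 alternative settings at 22 °C, Ndufa4 in 24, Cox7b in 16 and Cox7c in 8, while at 30 °C Cox6b1, Cox6c, Cox7b, Cox7c and Ndufa4 passed in all 27. Leaving out 1 mouse cut the 4 calls at 22 °C to 2, Cox6c and Ndufa4, for controls 1, 2 and 4 and knockouts 1 and 2 of that temperature and for control 3 at 30 °C, which shares in the estimate of spread. The share of all genes called lower at 22 °C was 0.322% to 1.12% when each mouse was left out. Controls 3 and 4 at 22 °C have identifiers that begin with R, and those of all other mice begin with E. Without these 2 controls 3 of 7 (Cox6c, Cox7b and Ndufa4) were lower at 22 °C, beside 1.48% of all genes, and 6 of 7 at 30 °C, beside 7.26%. With the groups at 22 °C fitted alone, 0 of 7 passed, beside 0.336% of all genes called lower, and the adjusted p-values of limma were 0.0588 for Cox6c and 0.0621 for Ndufa4.

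The scaling sets the size of these differences, and the plot of the knockout effects under 4 scalings gives each value. With the FPKM as deposited the median of all genes was shifted by 0.24 (log2) at 22 °C and 0.31 at 30 °C, and with equal totals over nuclear genes by 0.12 and 0.19. The median of the 7 genes as deposited was -0.21 at 22 °C and -0.61 at 30 °C. As deposited 2 of 7 were called lower at 22 °C, where 0.619% of all genes were under the same scaling, and 5 of 7 at 30 °C, where 2.22% were. Under quantile normalization these counts were 1, beside 0.696% of all genes, and 5, beside 6.94%. Cox6b1, Cox6c, Cox7b, Cox7c and Ndufa4 had estimates below 0 under each of the 4 scalings at both temperatures, and Cox5a turned to 0.08 as deposited at 22 °C.

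**Figure D2:**
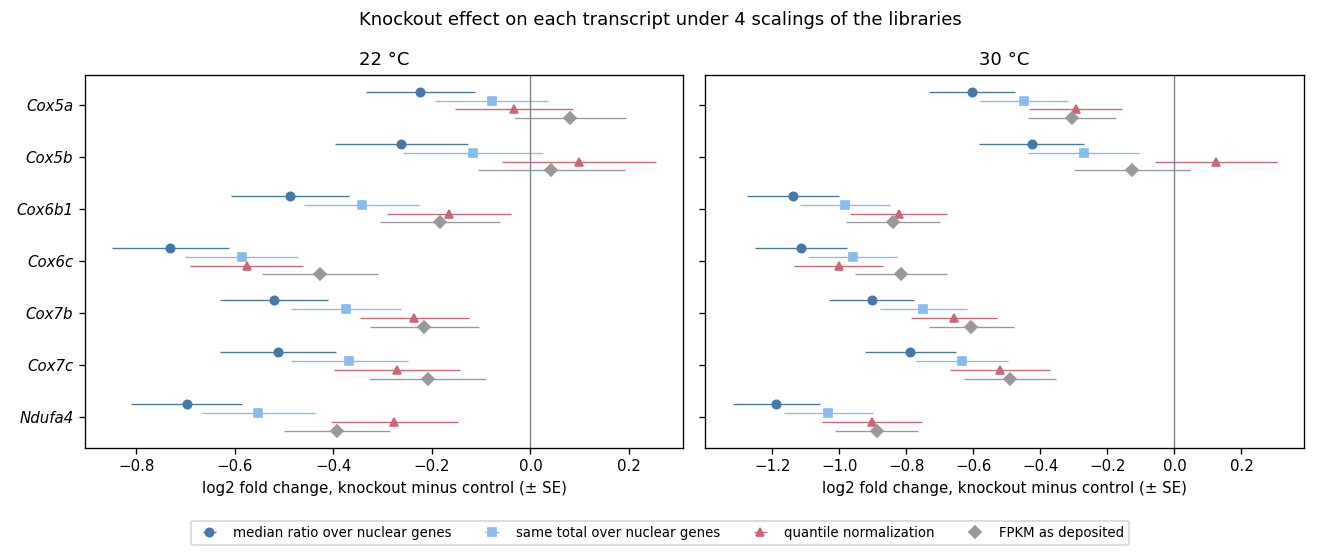
Log2 fold change of knockout against control for each of the 7 transcripts at 22 °C (left) and 30 °C (right), with whiskers of 1 SE, under 4 scalings of the libraries. Cox5b crosses 0 at both temperatures and Cox5a at 22 °C (0.08 as deposited), while the other 5 genes stay below 0 throughout.

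The knockout effect at 22 °C minus that at 30 °C was above 0 for all 7 genes, with a median of 0.38 beside -0.054 for all genes. It was largest for Cox6b1, 0.65 (limma adjusted p = 0.201), and Ndufa4, 0.49 (limma adjusted p = 0.263), and smallest for Cox5b, 0.16 (limma adjusted p = 0.779). In this comparison limma called 0 of 7 genes and 0 of 13079, a background of 0%. At an unadjusted p under 0.05, limma had 4 of 7 (Cox5a, Cox6b1, Cox7b and Ndufa4) beside 13% of all genes. A larger effect at 30 °C than at 22 °C was therefore not established for any single member. Housing temperature also went with sex-linked transcripts, as given below, so a difference between these effects could not be assigned to either.

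**Figure D3:**
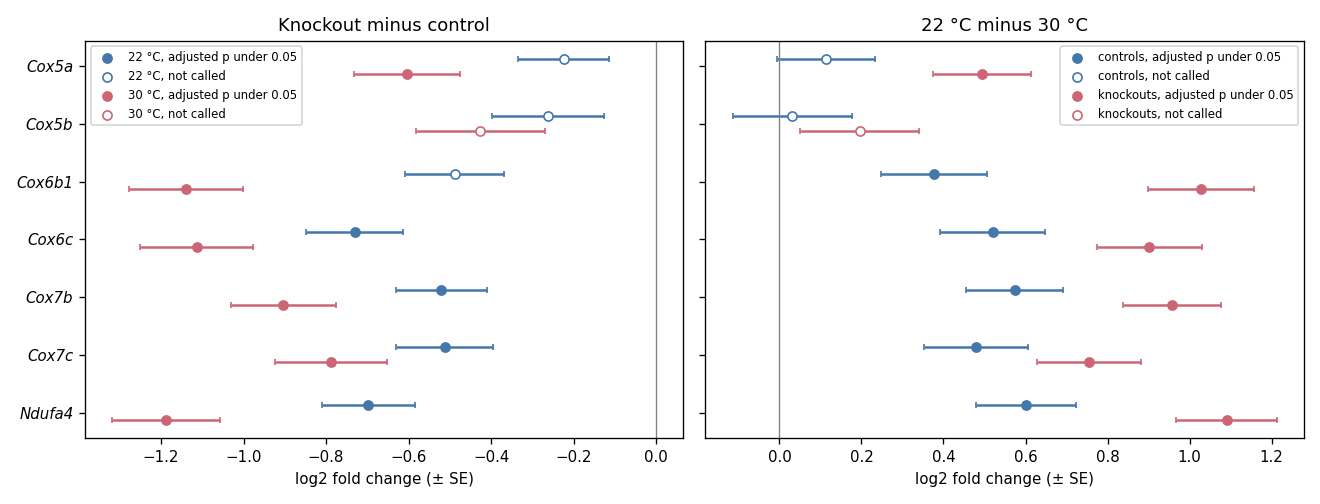
Log2 fold changes of the 7 transcripts with whiskers of 1 SE, for knockout minus control at each temperature (left) and for 22 °C minus 30 °C in each genotype (right). Filled points passed an adjusted p under 0.05 in limma. The points at 30 °C lie to the left of those at 22 °C for every gene, and Cox5b is open in all 4 comparisons.

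Between temperatures the controls housed at 22 °C had more of 5 of the 7 transcripts than controls housed at 30 °C. Cox6b1, Cox6c, Cox7b, Cox7c and Ndufa4 were called higher, where 18.2% of all genes were, and the median of the 7 genes was 0.48, beside -0.051 for all genes. The ranges were separate for these 5 of 7, against 19.9% of all genes. Ndufa4 had the largest difference, 0.60 ± 0.12 (SE; limma adjusted p = 0.00283), from a mean of 1339 ± 49.9 scaled FPKM (SD, n = 3) to 2035 ± 187 (SD, n = 4). Cox7b stood at 0.57 (limma adjusted p = 0.00313), Cox6c at 0.52 (limma adjusted p = 0.0074), Cox7c at 0.48 (limma adjusted p = 0.0106) and Cox6b1 at 0.38 (limma adjusted p = 0.0344). Cox5a, 0.11 (limma adjusted p = 0.47), and Cox5b, 0.03 (limma adjusted p = 0.883), did not pass.

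In knockouts 6 of 7 were higher at 22 °C than at 30 °C, all but Cox5b, where 21.8% of all genes were called higher. The median was 0.90, beside -0.072 for all genes, and ranges were separate for 6 of 7, against 24% of all genes. Ndufa4, 1.09 (limma adjusted p = 4.94e-05), and Cox6b1, 1.03 (limma adjusted p = 8.65e-05), were at 213% and 205% of their means at 30 °C. Cox7b (0.96 (limma adjusted p = 8.32e-05)), Cox6c (0.90 (limma adjusted p = 0.000171)), Cox7c (0.76 (limma adjusted p = 0.000453)) and Cox5a (0.49 (limma adjusted p = 0.00418)) followed, and Cox5b did not pass at 0.20 (limma adjusted p = 0.274). For every gene the range of knockouts at 22 °C overlapped that of controls at 30 °C, for example 1256 ± 136 scaled FPKM for Ndufa4 in the former (SD, n = 4) and 1339 ± 49.9 in the latter (SD, n = 3). Overlapping ranges do not show that these levels were equal. The comparisons share groups and are not independent of each other.

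Temperature went with sex-linked transcripts. Xist was at most 0.0139 scaled FPKM in the 8 mice at 22 °C and at least 9.70 in the 6 mice at 30 °C, and the Y-linked Ddx3y showed the reverse, while the labels give no sex. Housing temperature and sex-linked expression cannot be told apart here. In controls the calls also moved with the removal of a trend on transcript length and GC content, which left 2 of 7, beside 10.1% of all genes called higher. The 7 transcripts are short, with a median length of 493.5 bases beside 1297.25 for all genes. Under that setting Cox6b1 and Ndufa4 passed, and Cox7b was 0.19 (limma adjusted p = 0.179). Cox6b1 in controls fell short of the threshold in 9 of 27 alternative settings.

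The make-up of the 7 transcripts, the share of each in their summed FPKM as deposited, is the same under any single factor per library, and quantile normalization, which is no single factor, can move it. Cox5b made up 20.98% ± 1.34 in controls at 22 °C (SD, n = 4), 24.5% ± 1.93 in knockouts at 22 °C (SD, n = 4), 26.5% ± 0.336 in controls at 30 °C (SD, n = 3) and 35.3% ± 2.68 in knockouts at 30 °C (SD, n = 3). Its share overlapped between genotypes at 22 °C and did not overlap at 30 °C. Ndufa4 went the other way, from 24.9% ± 1.19 and 21.6% ± 2.32 at 22 °C to 21.2% ± 0.812 and 16.6% ± 1.21 at 30 °C, in the same order of groups. Cox6c, with 4.48% ± 0.282, 3.78% ± 0.188, 4.03% ± 0.118 and 3.32% ± 0.222, was the member whose share was separate between groups in all 4 comparisons of genotype and temperature. Cox6b1 kept near 24.1% in the first 3 groups and had 19.5% ± 1.13 in knockouts at 30 °C. The share of Cox7c overlapped between groups in all 4 comparisons, at 12.3% ± 0.397 in controls at 22 °C and 11.8% ± 0.136 in knockouts at 30 °C. These shares are given as values with no test.

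**Figure D4:**
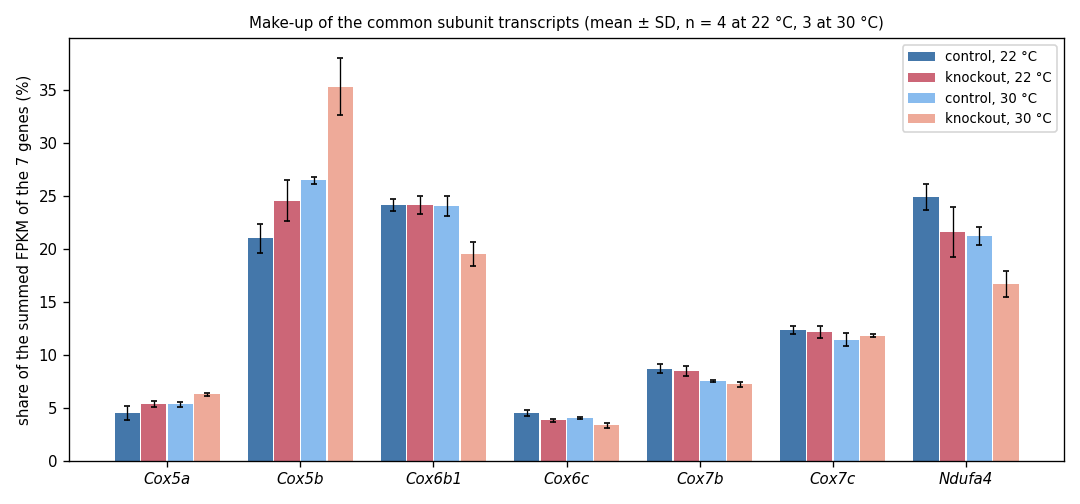
Share of each transcript in the summed FPKM of the 7 genes, in percent, as mean ± SD by group (n = 4 at 22 °C, n = 3 at 30 °C), with bars from 0. Cox5b goes from 20.98% to 35.3% between controls at 22 °C and knockouts at 30 °C, and Ndufa4 goes from 24.9% to 16.6%.

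Beside the 7 genes, the mitochondrially encoded core subunits showed far larger differences. mt-Co1, the subunit that holds the oxygen-reducing site, was 47493 ± 6149 scaled FPKM in controls at 22 °C (SD, n = 4) and 3097 ± 563 in knockouts (SD, n = 4), a log2 fold change of -3.95 (limma adjusted p = 4.76e-06). At 30 °C it was 55763 ± 4922 (SD, n = 3) and 5041 ± 2225 (SD, n = 3), or -3.59 (limma adjusted p = 6.11e-05). The ratio of mt-Co1 to the sum of the 7 nuclear transcripts went from 5.80 ± 0.453 (SD, n = 4) in controls to 0.541 ± 0.153 (SD, n = 4) in knockouts at 22 °C, and from 8.85 ± 1.06 (SD, n = 3) to 1.47 ± 0.730 (SD, n = 3) at 30 °C. The ranges of both pairs were separate. The levels of mt-Co2 and mt-Co3 were far below that of mt-Co1, with means of 442 and 410 scaled FPKM in controls at 22 °C. The cause of this gap was not tested. mt-Co2 was -3.17 and -3.41 and mt-Co3 -3.49 and -3.25 on the log2 scale at 22 °C and 30 °C, and all 3 core subunits were called at both temperatures. Between temperatures 0 of 3 were called in either genotype by limma, and 0 of 3 had an unadjusted p under 0.05. A difference between the core subunits and the 7 genes was not tested.

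The remaining nuclear subunits of complex IV, most of them isoform pairs, had 9 of 11 genes tested. At 22 °C 0 of 9 were called by limma (4 of 9 at an unadjusted p under 0.05), with a median of -0.29. At 30 °C 7 of 9 were lower, beside 5.28% of all genes, with a median of -0.69. Cox8b, the isoform of heart and muscle that brown fat also makes, was -0.54 (limma adjusted p = 0.109) at 22 °C and -1.30 (limma adjusted p = 0.00118) at 30 °C. Cox4i1, the partner of Cox5a, was -0.28 (limma adjusted p = 0.231) and -0.69 (limma adjusted p = 0.00511), and Cox7a1, another isoform of heart and muscle, -0.14 (limma adjusted p = 0.713) and -0.93 (limma adjusted p = 0.00578). Cox6a2, a muscle isoform, was 2.12 at 30 °C with an SE of 1.60 and did not pass (limma adjusted p = 0.427).

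**Figure D5:**
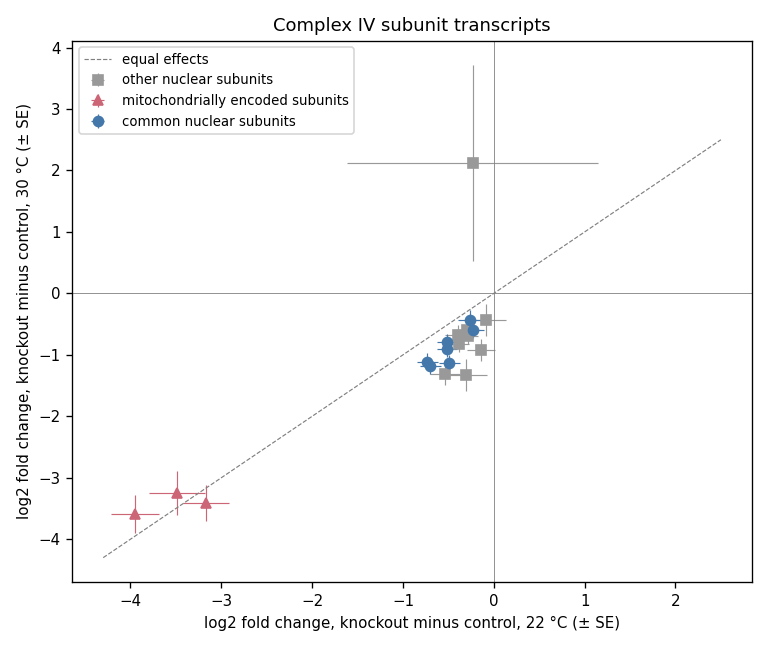
Log2 fold change of knockout against control at 22 °C (x axis) and 30 °C (y axis) for complex IV subunit transcripts, with whiskers of 1 SE and a dashed line of equal effects. The 7 common nuclear subunits (circles) lie below the line among the other nuclear subunits (squares), the 3 mitochondrially encoded subunits (triangles) lie below -3 on both axes, and the square at 2.12 is Cox6a2.

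Among relatives of the 7 genes, Ndufa4l2 was 11.97 ± 5.98 and 9.87 ± 1.71 scaled FPKM in controls and knockouts at 22 °C (SD, n = 4 each) and 26.03 ± 3.58 and 25.3 ± 1.34 at 30 °C (SD, n = 3 each). It was far scarcer than Ndufa4, it was not called between genotypes (-0.17 (limma adjusted p = 0.776) and -0.03 (limma adjusted p = 0.957)), and it was lower at 22 °C than at 30 °C in controls, -1.15 (limma adjusted p = 0.00422), where Ndufa4 was higher. Cox6b2 was 44.0 ± 6.87 in controls at 30 °C (SD, n = 3) and fell to 16.9 ± 1.67 in knockouts (SD, n = 3), -1.33 (limma adjusted p = 0.00592). At 22 °C Cox6b2 was not called between genotypes, -0.30 (limma adjusted p = 0.558). In controls it was lower at 22 °C than at 30 °C, -1.60 (limma adjusted p = 0.000648), where Cox6b1 was higher. Cox7b2 was listed at 0 in 3 of the 4 groups.

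Of 23 tested genes for proteins that assemble complex IV, 2 were lower at 22 °C and 7 at 30 °C, with medians of -0.062 and -0.27. Of all genes, 1.06% and 5.28% were called lower at these temperatures. Pet100, an assembly factor of the inner membrane, was -0.67 (limma adjusted p = 0.038) and -1.03 (limma adjusted p = 0.00295), and Higd2a, which helps form supercomplexes with complex III, -0.45 (limma adjusted p = 0.02) and -0.54 (limma adjusted p = 0.00463). Surf1, Cox14, Cmc1, Higd1a and Smim20 also passed at 30 °C. Cox10 and Cox15, which make the heme of the enzyme, were -0.09 and -0.04 at 30 °C and did not pass.

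The other complexes that were listed also held genes that fell. Of all genes tested, 1.06% were called lower at 22 °C and 5.28% at 30 °C. Of 9 nuclear genes of complex III, 3 were lower at 22 °C (median -0.37) and 8 at 30 °C (median -0.65), with the hinge protein Uqcrh at -1.13 (limma adjusted p = 0.000947) at 30 °C. Of 17 nuclear ATP synthase genes, 6 were lower at 22 °C (median -0.37) and 11 at 30 °C (median -0.59). Their catalytic subunit Atp5b was 0.02 and -0.49 and did not pass, while the small subunit Atp5k was -1.24 (limma adjusted p = 0.000399) at 30 °C. Of 14 other mitochondrial proteins, such as citrate synthase (Cs) and the porins Vdac1, Vdac2 and Vdac3, 0 were called at 22 °C by limma (2 at an unadjusted p under 0.05; median -0.054) and 2 were lower at 30 °C (Timm44 and Phb; median -0.17). Differences between these lists and the 7 genes were not tested.

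Of 16 regulators of respiratory genes, 1 was higher at 22 °C, the coactivator Ppargc1a at 1.14 (limma adjusted p = 0.0411), although the ranges of its groups overlapped. At 30 °C Yy1 was higher, 0.44 (limma adjusted p = 0.0155), and the mitochondrial transcription factor Tfb2m lower, -0.59 (limma adjusted p = 0.0484). Nrf1 (0.50), Gabpa (0.00) and Esrra (-0.13) did not pass at 30 °C. In knockouts at 22 °C Ppargc1a was thus higher while Cox6c, Cox7b, Cox7c and Ndufa4 were lower.

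Across the 14 mice the 7 transcripts varied together, with a Pearson r of 0.72 to 0.99 over the 21 pairs and a median of 0.93. With group means removed the median was 0.63. The pairs of Cox5a with Ndufa4, Cox7b and Cox6c were then lowest, at 0.14, 0.15 and 0.17, and the pair of Cox6c and Cox7b was highest at 0.91. The tested genes outside the 7 whose log2 values followed their mean most closely over the 14 mice were Atp5j2 (r = 0.99), Ndufb11 (0.99), Cox8a (0.99), Ndufb4 (0.98) and Mrpl17 (0.98). With group means removed they were Ndufc2 (0.96), Atp5j2 (0.92), Ndufb11 (0.91), Cox8a (0.89) and Ndufa8 (0.89). All of these values share libraries and their scaling factors, and are given as a description.

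Markers of cell types differed between the same groups. All 12 brown adipocyte markers were detected. Summed over 12 genes, brown adipocyte markers ranged from 15936 to 21359 scaled FPKM in controls and 12589 to 16663 in knockouts at 22 °C, and from 11437 to 14200.4 and 6436 to 8319 at 30 °C. These sums are mostly Fabp4, a fatty acid binding protein of adipocytes, with a mean of 12258 in controls and 8411 in knockouts at 22 °C and 8346 and 4683 at 30 °C. At 22 °C the list was mixed. Estimates were above 0 for 8 of 12 genes (median 0.19, beside 0.0024 for all genes). Elovl3 (0.88), Kcnk3 (0.74), Pparg (0.46) and Plin1 (0.44) had the highest estimates and did not pass. Ucp1 was -0.02 (limma adjusted p = 0.982). Only 1 gene was called, the adipokine Adipoq, lower at -0.79 (limma adjusted p = 0.016), where 1.06% of all genes were called lower. At 30 °C 11 of 12 had estimates below 0 (median -0.45) and 5 were called lower, beside 5.28% of all genes, with Ucp1 at -1.31 (limma adjusted p = 0.0302). The 12 macrophage markers summed to 53.8 to 74.2, 78.5 to 201, 109.7 to 374 and 539 to 1696 in the same order of groups, with Lyz2 the most abundant. In knockouts at 30 °C their median log2 fold change was 1.82, beside 0.065 for all genes, and 11 of 12 had estimates above 0. The 8 endothelial markers summed to 448 to 487 in controls and 815 to 890.4 in knockouts at 30 °C. Cldn5, a tight junction protein, carried this rise, from a mean of 104 to 547, 2.39 (limma adjusted p = 0.00119), and the other 7 had estimates of -0.45 to -0.15, none of which passed. No marker of these lists was at 0 in every library, and their part in the differences of the 7 genes was not tested. Skeletal muscle markers ranged from 75.2 to 15422 among controls at 30 °C alone. With a muscle score as covariate 3 of 7 members were lower at 22 °C, beside 0.963% of all genes, and 6 of 7 at 30 °C, beside 4.34%.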

How the data were processed

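The authors deposited FPKM per gene with 1 column for each of the 14 mice. The build was mm9, per the submitters' processing notes, and the aligner, counter, annotation and use of strand are not given in the sources used here. Of 35275 genes, 34490 matched GENCODE M21, used only for symbols, chromosomes, transcript length and GC content. Depth was recovered from low FPKM values: at the depth given, 85.9% to 88.9% of the values up to 6 fragments were whole to within 0.05.

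Genes with at least 1 FPKM in at least 3 samples were kept. Libraries were scaled by the median ratio over 10049 nuclear genes, as the genotypes differ in mitochondrial transcripts. On log2(scaled FPKM + 1), 4 group means were fitted with limma 3.58.1 (R 4.3.3; eBayes with trend), all 14 samples sharing 1 estimate of spread; fold changes understate those of low genes. Adjustment was by Benjamini-Hochberg over all genes of a comparison. The script was tested on simulated data. Named genes were the 7 members, genes of the listed groups, Lrpprc, Ucp1, Xist, Ddx3y and the 5 genes most like the members by each measure of correlation. The members and lists were chosen with earlier results of these data known. Near-identical copies (at least 90% over at least 100 bases) were found with blastn 2.17.0. Alternatives covered the pseudocount, filter, scaling, eBayes settings, weights, a muscle covariate, a length and GC trend, the groups fitted alone, the room-temperature controls whose identifiers begin with R, and each mouse left out. Other steps used Python 3.11.15 with matplotlib 3.10.9, pandas 2.3.3 and numpy 2.4.6.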

Additional observations from a re-analysis of the deposited data

How the results depend on the processing

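Over 27 alternatives (26 for the difference between effects) the count of the 7 members called lower at 30 °C was 5 to 7. Of all genes, 2.22% (FPKM as deposited) to 10.5% (sample weights) were called lower there. The count higher at 22 °C in knockouts was 6 throughout, beside 11% (no filter on low values) to 31.9% (quantile normalization) of all genes. The difference between effects had 0 members throughout. At 22 °C the count of 4 fell to 1 with no filter on low values, to 2 with the FPKM as deposited, to 1 with quantile normalization, to 2 with equal totals over nuclear genes and to 0 with the compared groups fitted alone. It ranged from 2 to 4 when each mouse was left out. Over all 27 alternatives it was 0 to 5, beside 0.322% to 3.85% of all genes called lower. In controls between temperatures the count of 5 fell to 3 with quantile normalization and to 2 with the length and GC trend removed. All genes called lower at 22 °C came to 0.335% with no filter and 0.573% with equal totals, and those called higher between temperatures in controls to 20.7% with quantile normalization. The cause of these moves was not tested.

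Directions turned for Cox5a and Cox5b only. With the FPKM as deposited the knockout effect at 22 °C was 0.080 for Cox5a and 0.042 for Cox5b. With quantile normalization Cox5b was 0.10 at 22 °C, 0.12 at 30 °C, -0.025 for the difference between effects and -0.19 between temperatures in knockouts. Between temperatures in controls Cox5b was -0.074 as deposited, -0.16 with quantile normalization, -0.023 with sample weights and -0.023 without the controls whose identifiers begin with R. Leaving out each mouse gave -0.047 (without control 4 at 22 °C) to 0.074, with -0.025 without control 1 at 30 °C. Cox5a was -0.024 with the length and GC trend removed. Counting error was small for the abundant members, and depth limits scarce relatives such as Cox7b2. With the length and GC trend removed Cox5b passed as higher at 22 °C in knockouts (0.58, limma adjusted p = 0.00608). No paired analysis was possible because the labels give the mice no shared replicate numbers.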
